A study of Mus musculus with 7 samples.

Results

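The genes described here are 10 adhesion molecules of the vessel wall, namely Icam1, Icam2, Vcam1, Sele, Selp, Pecam1, Cdh5, Mcam, Esam and Jam2, chosen by symbol from the 53465 rows of a table of estimated read counts per gene. All 10 were found, and 9 had enough counts to be tested, Sele being the exception. EMT6 cells, an established BALB/c mammary carcinoma line, were grown in the mammary fat pad of BALB/c mice from 500000 cells. Both groups received antibody at 250 μg per mouse every 3 days from day 1 until endpoint. The 3 EMT6-P tumors received an isotype control antibody, and the 3 EMT6-PTR tumors, a variant that the labels call PDR, received an antibody against PD-L1 and were resistant to it. A single metastasis of the resistant variant received the same antibody against PD-L1. The labels describe it as breast tumor tissue and do not name its organ. The labels do not say whether the replicates of a group came from separate mice, so that p-values measure only the spread between these samples.

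Leukocytes leave the blood in steps. Selectins on activated endothelium catch rolling cells, immunoglobulin-superfamily ligands such as ICAM1 and VCAM1 then hold them firmly through their integrins, and the cells pass between endothelial cells at junctions built from VE-cadherin, PECAM1 and JAM family proteins. Icam1, Vcam1, Sele and Selp can be induced by inflammatory cytokines through NF-kappaB, whereas Cdh5, Pecam1, Esam and Icam2 are expressed by resting endothelium as well. Icam1 is also made by leukocytes, fibroblasts and epithelial or carcinoma cells, Vcam1 by stromal cells and macrophages, Mcam by pericytes and Selp by platelets. In whole tissue, fewer cells of a type and less RNA per cell cannot be told apart.

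For 4 of the 10 genes (Icam1, Sele, Selp and Mcam) a RefSeq promoter sequence was at hand, on assembly GRCm38.p6. The 250 bases before the transcription start are printed for Icam1, Sele and Selp, the inducible genes among them, 5′ to 3′ on the plus strand. Icam1 is at chr9:21015690-21015939, Sele at chr1:164047984-164048233 and Selp at chr1:164115014-164115263. Capitals mark matches, on either strand, to a loosened NF-kappaB consensus or to the STAT-type motif TTCNNNGAA. The first base of the NF-kappaB consensus, a G, was left free. None of the matches reported here had G at that base, so none met the strict consensus.
Icam1: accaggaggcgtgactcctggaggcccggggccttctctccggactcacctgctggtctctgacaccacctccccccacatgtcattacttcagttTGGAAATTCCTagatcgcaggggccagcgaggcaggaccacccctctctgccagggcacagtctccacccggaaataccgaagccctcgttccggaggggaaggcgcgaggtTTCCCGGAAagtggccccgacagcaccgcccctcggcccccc
Sele: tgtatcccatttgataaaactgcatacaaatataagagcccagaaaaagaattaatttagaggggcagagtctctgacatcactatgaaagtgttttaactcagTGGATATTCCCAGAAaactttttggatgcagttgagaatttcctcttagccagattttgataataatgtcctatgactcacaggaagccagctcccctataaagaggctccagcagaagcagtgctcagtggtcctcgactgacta
Selp: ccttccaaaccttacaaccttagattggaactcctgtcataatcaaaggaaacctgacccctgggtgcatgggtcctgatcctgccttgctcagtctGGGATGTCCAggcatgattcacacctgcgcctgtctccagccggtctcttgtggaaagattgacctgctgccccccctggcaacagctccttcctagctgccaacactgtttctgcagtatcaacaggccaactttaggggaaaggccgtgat
Each of the 3 held an NF-kappaB match, which began 154 bases before the start in Icam1, 146 in Sele and 153 in Selp, and Mcam held another. Of 32851 promoters of this length, 11.3% held such a match. TTCNNNGAA was found in Icam1, 42 bases before the start, and in Sele, 140 bases before it, where it overlaps the NF-kappaB match. This motif was in 7.02% of all promoters. Sele alone of the 4 held TATAAA, which 12.4% of promoters did. These are matches of letters and were not tested as binding sites.

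Library depth lay between 20430110 and 25213472 estimated counts. Values are given as CPM, counts scaled to library size with upper-quartile factors over the 7 libraries; on this scale 3 counts equalled 0.117 to 0.167 CPM. Endothelial genes were measured in every tumor. All 30 genes of an endothelial list were tested, none was at 0 in any library, and their summed level was 491.5 to 617.6 CPM in the 6 primary tumors. Flt1, a VEGF receptor of endothelium, lay between 21.8 and 42.4 CPM in them, and Kdr, the main VEGF receptor, between 7.81 and 23.5 CPM. Several libraries stood apart. EMT6-PTR 3 had the highest summed level of 8 fibroblast genes, 20915.9 CPM against 5707.1 to 9203.7 in the other 5 tumors, and the lowest level of 10 proliferation genes, 209.8 CPM against 1084.2 to 1336.7. The fibroblast list was uneven there. Dcn was at 3345.5 CPM against 32.2 to 104.3, whereas Thy1 was lowest, at 6.68 CPM against 63.2 to 114.0. Col1a1, at 2754.6 CPM, lay within the 2427.4 to 3708.2 of the other tumors. EMT6-PTR 1 held 4469.8 CPM of 8 skeletal muscle genes, with EMT6-P 1 at 668.8, EMT6-P 3 at 394.2 and the others at or under 14.1. In EMT6-PTR 2 a single gene, CT010467.1, took 13.846% of all counts. The common dispersion, a measure of spread between replicates, was 0.0266 among EMT6-P and 0.246 among EMT6-PTR tumors.

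The first comparison asked whether resistant tumors carried more or less adhesion-molecule RNA than the controls. None of the 9 tested genes was called, and in none of the 10 did the 3 EMT6-PTR values all lie above or all below the 3 EMT6-P values. In the quasi-likelihood fit of edgeR, adjusted by Benjamini-Hochberg, 0 of 15645 genes (0.0%) had an adjusted p under 0.05, the smallest adjusted p being 0.421. DESeq2 called 281 genes, 138 higher and 143 lower, and limma-voom called none. No member was among the genes called by any of these tools. At an unadjusted p under 0.05, 0 of 9 members passed, where 11.4% of all tested genes did. Groups lay fully apart with EMT6-PTR above for 9.52% of all tested genes and with EMT6-PTR below for 11.8%. The fitted change was above 0 for 5 members and below 0 for 4, with a median log2 fold change of 0.11, beside 0.03 over all genes tested.

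Icam1, the ligand of the leukocyte integrins LFA-1 and Mac-1 (ENSMUSG00000037405.8, chr9:21015985-21028817, plus strand), stood at 17.8, 17.8 and 15.0 CPM in EMT6-P tumors 1 to 3 and at 28.1, 17.9 and 8.67 CPM in EMT6-PTR tumors 1 to 3. The controls were close together, whereas the resistant group held both the highest and the lowest of the 6 tumors. The group means were 16.9 ± 1.61 and 18.3 ± 9.74 CPM (SD, n = 3 each), and the log2 fold change of EMT6-PTR over EMT6-P was 0.11 (SE 0.40, 95% interval -0.85 to 1.08; edgeR adjusted p = 0.923). The interval reaches from 0.554-fold to 2.11-fold, and changes within it cannot be told from none with these tumors. Leaving out EMT6-PTR 1 turned the sign, to -0.35, and leaving out EMT6-PTR 3 gave 0.45.

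Icam2 (ENSMUSG00000001029.15, chr11:106377656-106388075, minus strand), the constitutive endothelial ligand of LFA-1, was measured at 7.21, 4.81 and 6.74 CPM in EMT6-P and at 5.06, 4.68 and 1.56 CPM in EMT6-PTR. EMT6-PTR 2 and 3 lay below all controls while EMT6-PTR 1 lay among them. The log2 fold change was -0.73 (SE 0.47, 95% interval -1.86 to 0.39; edgeR adjusted p = 0.548), which was the smallest adjusted p of the 9 members. Without EMT6-PTR 3 it was -0.36.

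Vcam1 (ENSMUSG00000027962.14, chr3:116109949-116129688, minus strand), the ligand of the integrin VLA-4, was measured at 48.4, 53.7 and 28.7 CPM in EMT6-P and at 66.0, 31.4 and 87.8 CPM in EMT6-PTR. Its order among the resistant tumors was unlike that of Icam1: Vcam1 was highest in EMT6-PTR 3, the library with the highest fibroblast sum, in which Icam1 was lowest. The log2 fold change was 0.50 (SE 0.41, 95% interval -0.48 to 1.48; edgeR adjusted p = 0.621), and without EMT6-PTR 3 it was 0.16.

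**Figure D1:**
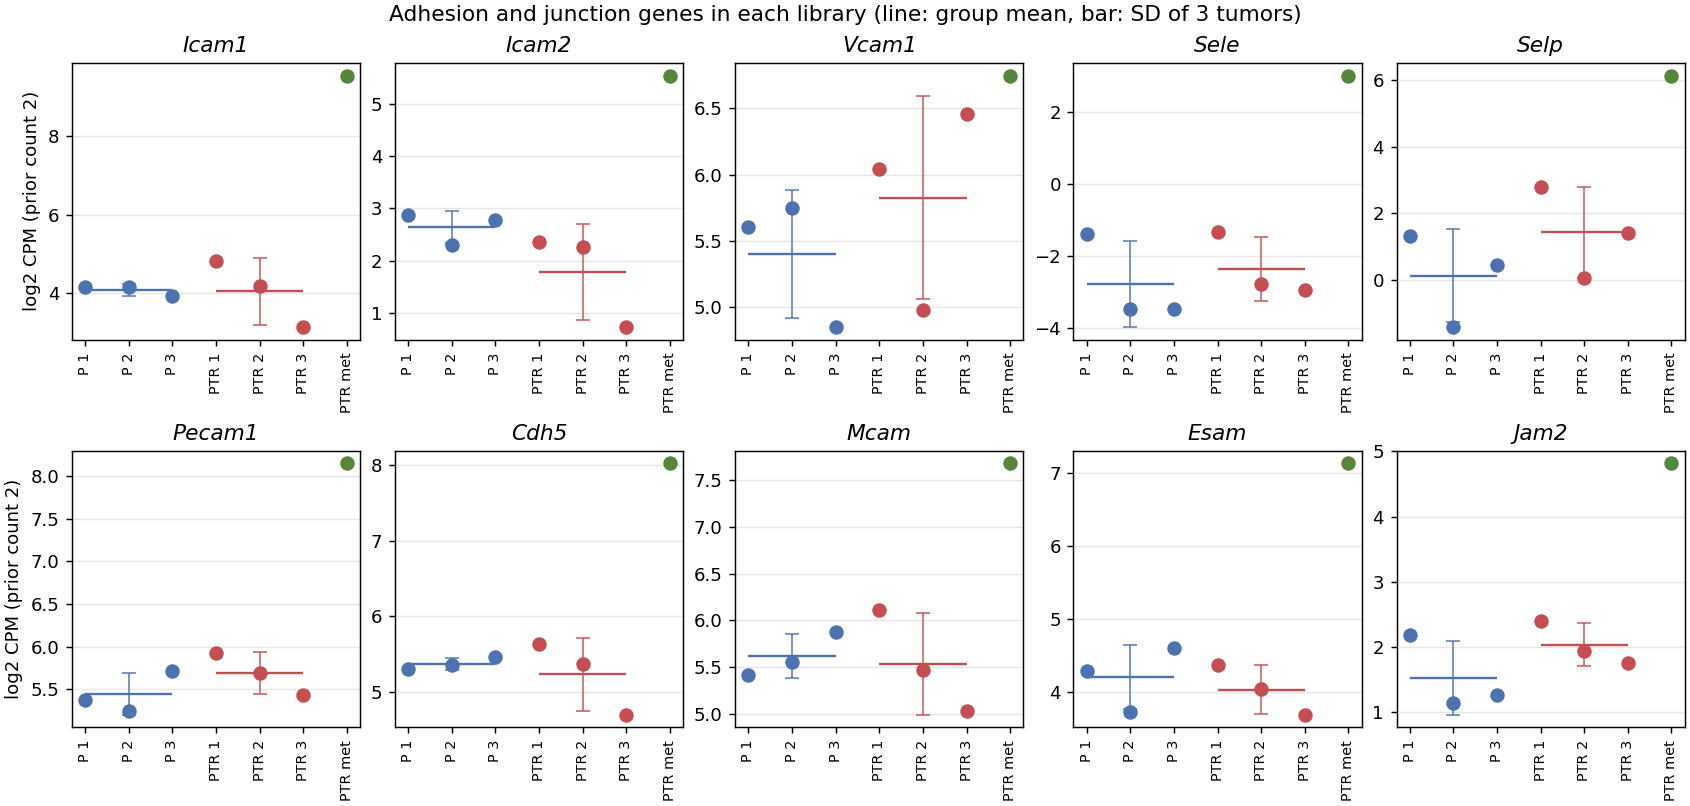
Log2 CPM (prior count 2) of the 10 genes in each library, with EMT6-P tumors in blue, EMT6-PTR tumors in red and the metastasis in green, and group means with SD over 3 tumors. The panels have separate y axes; in each the blue and red points overlap and the green point lies highest.

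Both selectins were low in the primary tumors. Sele (ENSMUSG00000026582.6, chr1:164048234-164057677, plus strand), E-selectin, which endothelium makes only on activation, had 6, 0 and 0 counts in EMT6-P and 7, 1 and 1 counts in EMT6-PTR. The libraries with 0 counts allow up to 0.140 and 0.141 CPM, and this limit covers counting error only. No fold change is given for Sele between these groups.

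Selp (ENSMUSG00000026580.16, chr1:164115264-164150026, plus strand), P-selectin, which endothelium and platelets store ready-made, was measured at 2.39, 0.28 and 1.27 CPM in EMT6-P and at 6.81, 0.947 and 2.58 CPM in EMT6-PTR. EMT6-PTR 1 and 3 lay above all controls and EMT6-PTR 2 among them, and the 6 values spanned 24.3-fold, from 6 to 156 counts. The log2 fold change of 1.39 was the largest of the members and also had the widest error (SE 0.92, 95% interval -0.82 to 3.60; edgeR adjusted p = 0.559). Without EMT6-PTR 1 it was 0.43. Of the 4 tested platelet genes, 2 were fitted above 0 and 2 below, with a median log2 fold change of -0.03 and none called. Pf4, a platelet chemokine, was at 20.6 to 47.3 CPM in EMT6-P and 5.16 to 13.1 CPM in EMT6-PTR. Gp1bb, a subunit of the platelet von Willebrand factor receptor, was at 6.73 to 11.4 CPM in EMT6-P and at 5.50, 6.57 and 31.3 CPM in EMT6-PTR. The part of platelets in the Selp values was not tested.

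The 5 junction genes varied least, with 1.61-fold to 2.47-fold between the highest and the lowest tumor, against 3.06-fold to 24.3-fold for the other 4 tested members. Cdh5 (ENSMUSG00000031871.9, chr8:104101625-104144511, plus strand), which encodes VE-cadherin, the adhesive core of the endothelial junction, was measured at 39.4, 40.8 and 44.0 CPM in EMT6-P and at 49.7, 41.2 and 25.9 CPM in EMT6-PTR. Its log2 fold change was -0.09 (SE 0.24, 95% interval -0.67 to 0.49; edgeR adjusted p = 0.896). Pecam1 (ENSMUSG00000020717.19, chr11:106654217-106750628, minus strand), a homophilic junction receptor also found on platelets and leukocytes, was measured at 41.4, 37.8 and 52.5 CPM in EMT6-P and at 60.9, 51.7 and 43.2 CPM in EMT6-PTR. It had the tightest estimate of the members, with a log2 fold change of 0.24 (SE 0.19, 95% interval -0.22 to 0.70; edgeR adjusted p = 0.611), which keeps the difference between 0.861-fold and 1.62-fold.

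Mcam (ENSMUSG00000032135.15, chr9:44134469-44142727, plus strand), CD146 of endothelium and pericytes, was measured at 42.7, 47.0 and 58.7 CPM in EMT6-P and at 69.2, 44.1 and 32.7 CPM in EMT6-PTR. The resistant values fell on both sides of the controls, and the log2 fold change was -0.02 (SE 0.29, edgeR adjusted p = 0.977). Esam (ENSMUSG00000001946.14, chr9:37528078-37538319, plus strand), an endothelial tight junction protein, was measured at 19.3, 13.1 and 24.1 CPM in EMT6-P and at 20.5, 16.4 and 12.8 CPM in EMT6-PTR, with a log2 fold change of -0.19 (SE 0.28, edgeR adjusted p = 0.793). Jam2 (ENSMUSG00000053062.15, chr16:84774123-84825928, plus strand), a junctional ligand for leukocyte integrins, was low throughout, at 4.43, 2.10 and 2.31 CPM in EMT6-P and 5.19, 3.73 and 3.28 CPM in EMT6-PTR. Its log2 fold change was 0.46 (SE 0.39, 95% interval -0.48 to 1.41; edgeR adjusted p = 0.637).

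**Figure D2:**
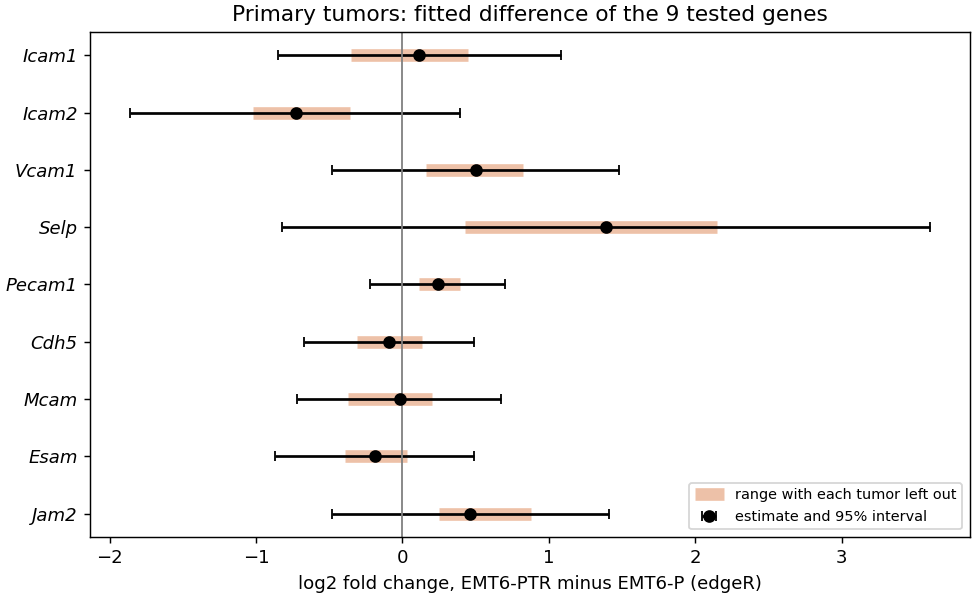
Log2 fold change of EMT6-PTR over EMT6-P primary tumors for the 9 tested genes (x axis), with the 95% interval as a line and the range when each tumor is left out as an orange bar. Every interval includes 0, from the narrow one of Pecam1 (-0.22 to 0.70) to the wide one of Selp (-0.82 to 3.60).

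EMT6-PTR 1 and 3 held most of the highest and lowest values. EMT6-PTR 1 had the highest value of the 6 tumors for 7 of the 10 members, and 7 of the 9 tested members lay there above all controls. EMT6-PTR 3 had the lowest value for 5 members (Icam1, Icam2, Cdh5, Mcam and Esam), and 5 tested members lay below all controls and 2, Vcam1 and Selp, above. In EMT6-PTR 2 only 1 lay above and 1 below. The same share over all tested genes was not determined for single tumors, so the shifts cannot be read as particular to the members. These shifts moved with the other features of those libraries given above, the muscle genes of EMT6-PTR 1 and the fibroblast and proliferation genes of EMT6-PTR 3. EMT6-PTR 3 also had the lowest sum of 8 epithelial and carcinoma genes, 617.2 CPM against 2397.5 to 2735.1, with the keratin Krt8 at 505.3 CPM against 1684.8 to 1898.1. Its leukocyte sum of 378.9 CPM, against 502.4 to 660.8, and its mural cell sum of 696.9 CPM, against 849.9 to 1406.2, were the lowest as well. The mural list was split there. Acta2 was at 54.2 CPM against 508.0 to 683.5, whereas Pdgfrb, at 562.3 against 108.2 to 309.3, and Notch3, at 38.4 against 9.02 to 24.0, were highest. The mural median lay -1.01 from the EMT6-P mean in log2, against -0.16 to 0.47 in the other tumors. The part of these cells in the members' values was not tested. In EMT6-PTR 3 the summed level of 22 genes induced by TNF and NF-kappaB was also lowest, 548.8 CPM against 1103.5 to 1702.0 in the other tumors.

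**Figure D3:**
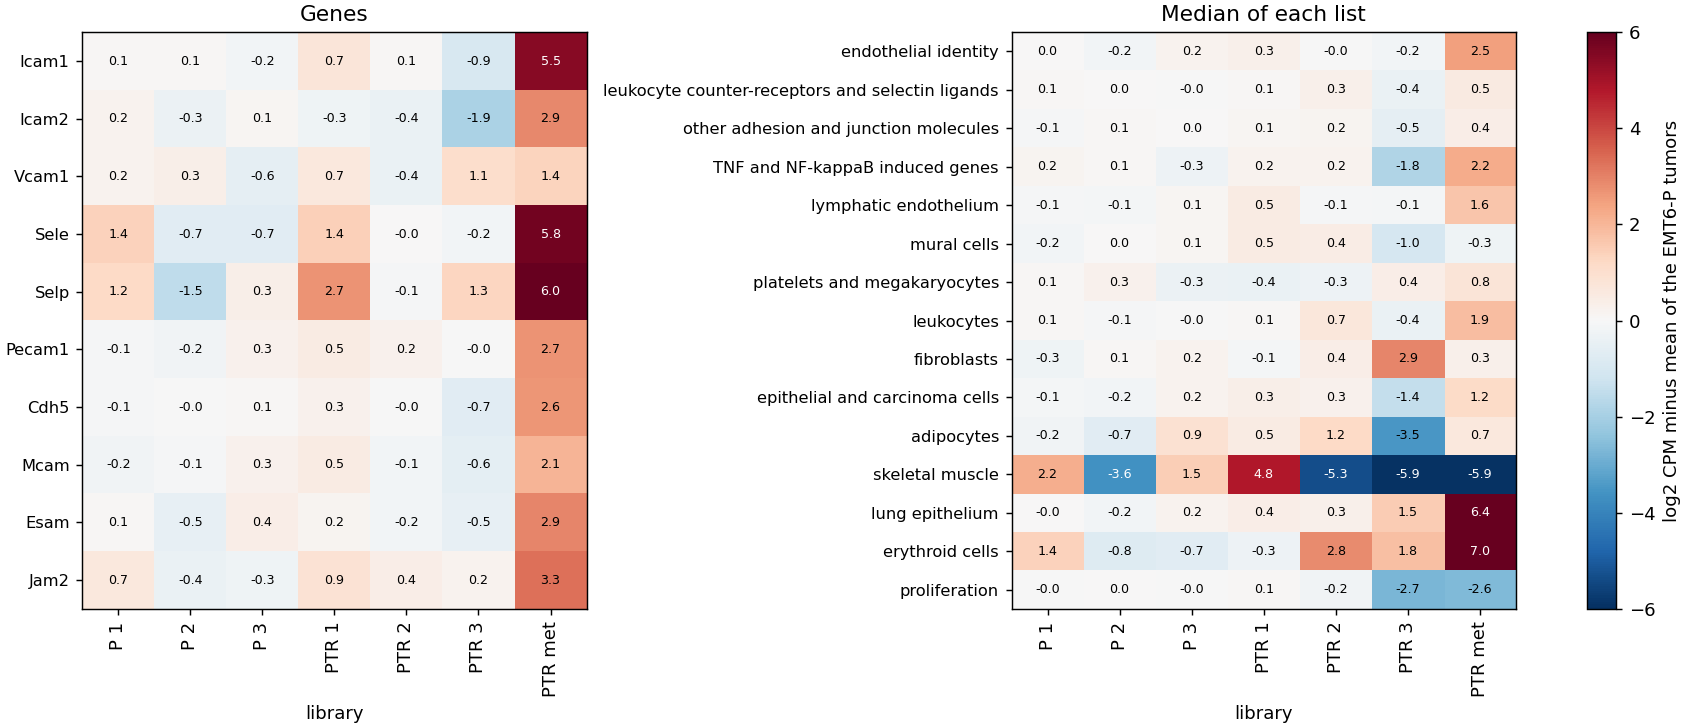
Log2 CPM of each gene (left) and median over each list (right) in every library, minus the mean of the 3 EMT6-P tumors, with red above and blue below; the color scale ends at 6. The metastasis column is red for all 10 genes, and EMT6-PTR 3 is blue for Icam1 and Icam2 but red for Vcam1 and Selp.

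The endothelial list gave a like picture in the primary tumors. Of its 30 genes, 16 had a fitted change above 0 and 14 below, the median log2 fold change was 0.05, and none was called. At an unadjusted p under 0.05, 3 were higher and 2 were lower. The smallest p belonged to Ptprb, the vascular phosphatase that acts on VE-cadherin and Tie2, at 8.60 to 10.9 CPM in EMT6-P and 16.2 to 21.6 CPM in EMT6-PTR, a log2 fold change of 0.93 with an edgeR adjusted p of 0.421. Mmrn2, an endothelial matrix protein, was next, at 10.7 to 15.5 CPM in EMT6-P and at 23.2, 93.6 and 98.5 CPM in EMT6-PTR, with the same adjusted p. Of 17 genes for leukocyte counter-receptors and selectin ligands, 10 were fitted above 0 and 7 below, with a median log2 fold change of 0.08 and none called. Itgal and Itgam, the alpha chains of LFA-1 and Mac-1 that bind ICAM1, had log2 fold changes of 0.08 and -0.27. Of 18 tested genes of other adhesion and junction molecules, 10 were fitted above 0 and 8 below, with none called. Of the 22 genes induced by TNF and NF-kappaB, 10 were fitted above 0 and 12 below, with a median of -0.09 and none called.

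The second comparison set the single metastasis beside the 3 EMT6-PTR primary tumors. It has no replicate, so that no test was made, and differences are given in log2 CPM with a prior count of 2. All 10 members were higher in the metastasis than in any of the 6 primary tumors, where 20.9% of all tested genes were. Of the 9 tested members, 8 were at least 2-fold above the mean of the EMT6-PTR tumors, beside 12.4% of all tested genes, and Vcam1 was the exception. The median difference of the tested members was 2.79, beside -0.02 over all genes tested.

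Icam1 had the largest difference of the tested members. It was at 749.8 CPM in the metastasis, from 18760 counts, 26.6 times its highest primary tumor. The difference from the EMT6-PTR mean was 5.51, and it ranged from 4.73 to 6.42 when each resistant tumor was used alone. This placed Icam1 at percentile 99.7 of all tested genes. Icam2 was at 46.6 CPM, a difference of 3.76 (3.18 to 4.82 over single tumors).

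Vcam1 moved least. Its level of 107.3 CPM in the metastasis was 1.22 times that of EMT6-PTR 3, and the difference from the EMT6-PTR mean was 0.92 (0.29 to 1.77 over single tumors). Sele had 200 counts in the metastasis against 7 in the highest primary tumor, a ratio of 26.2 after scaling with a 95% exact interval for counting error of 12.5 to 65.9. Selp was at 70.4 CPM, a difference of 4.72 (3.35 to 6.09), and 10.3 times its highest primary tumor.

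The 5 junction genes lay closer together. Cdh5 was at 260.5 CPM, a difference of 2.79 (2.39 to 3.32), and Pecam1 at 284.8 CPM, a difference of 2.47 (2.22 to 2.72). Mcam was at 205.0 CPM with a difference of 2.14, Esam at 141.0 CPM with 3.11 and Jam2 at 28.1 CPM with 2.79. The spread over single tumors was narrower for these genes than for Icam1 and the selectins. The endothelial list had a median difference of 2.31, with 24 of 30 genes at least 2-fold higher and Emcn, endomucin, at 8.51 CPM against 15.7 to 22.0 in the primary tumors.

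**Figure D4:**
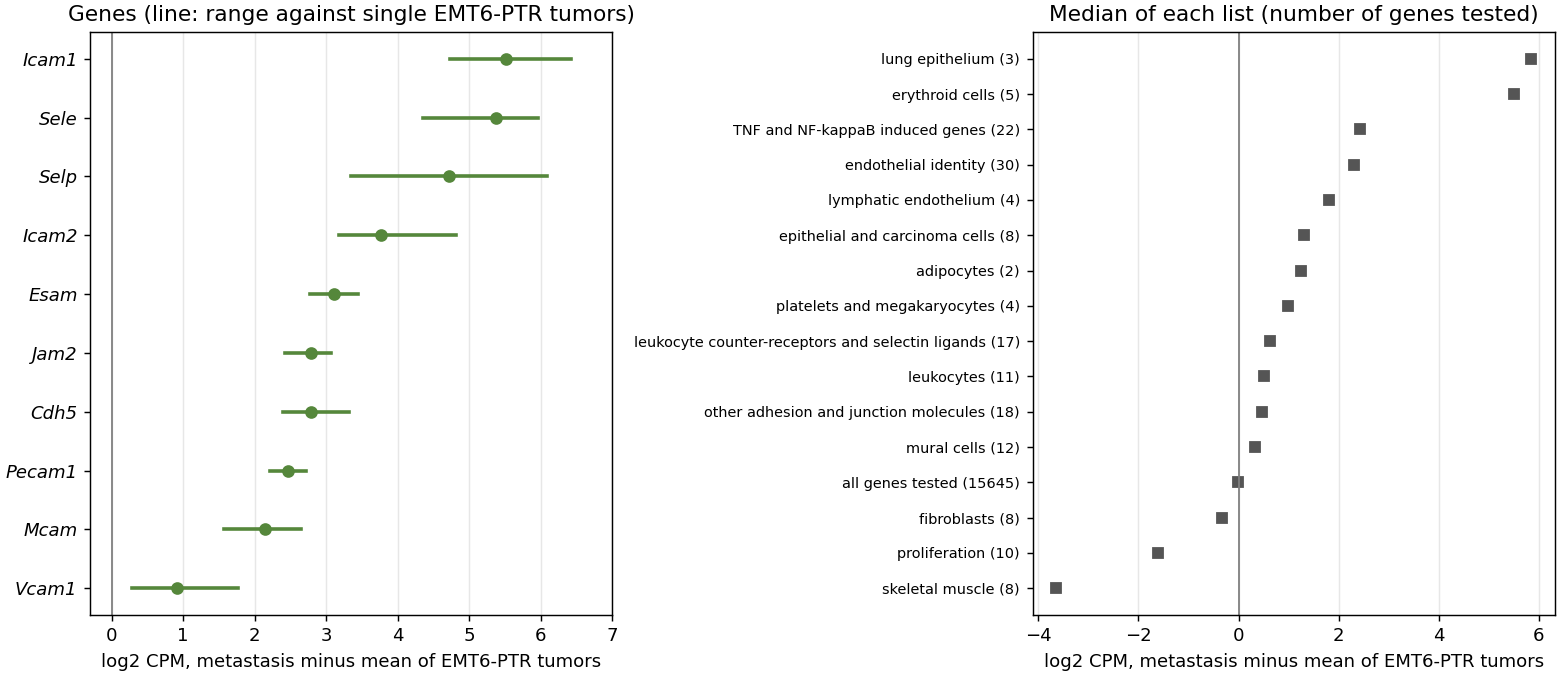
Left, log2 CPM in the metastasis minus the mean of the 3 EMT6-PTR tumors for each gene, with a line for the range against single tumors; Sele rests on 7, 1 and 1 counts in those tumors. Right, the median of the same difference over each list, from 5.84 for lung epithelium genes to -3.64 for skeletal muscle genes, with all genes tested at -0.02.

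Markers of other cells moved with the members in this library. The 8 lung epithelium genes summed to 8968.0 CPM in the metastasis against 6.96 to 31.9 in the primary tumors, with Sftpc, a surfactant protein of alveolar type II cells, at 2347.8 CPM and at 0.189 or less elsewhere, and Sftpb at 1160.3 CPM. All 8 were above 0 in the metastasis, and 4 or 5 were at 0 in 5 of the 6 tumors. The 6 erythroid genes summed to 7785.8 CPM against 30.9 to 378.2. The 15 leukocyte genes summed to 2538.6 CPM against 378.9 to 660.8, and the excess lay in S100a8 and S100a9, calprotectin genes abundant in neutrophils, which together made 2129.6 CPM against 9.95 to 45.7. The other 13 leukocyte genes summed to 409.1 CPM against 360.0 to 636.6, within the range of the primary tumors. Among them the macrophage gene Adgre1 was at 19.4 CPM, below all 6 primary tumors. Ptprc, the common leukocyte antigen, was at 90.0 CPM against 33.0 to 92.5 and Cd3e, a T cell receptor subunit, at 2.84 CPM against 0.391 to 2.28. The 11 platelet genes summed to 71.1 CPM against 21.4 to 59.2, and the list was uneven. Pf4, at 19.6 CPM against 5.16 to 47.3, and Gp1bb, at 18.4 CPM against 5.50 to 31.3, lay within the primary range. Of the 4 tested, 1 was above all 6 primary tumors. Among those with too few counts to be tested, Tubb1 had 90 counts against 0 to 2 and Clec1b 111 against 1 to 9. Treml1 had 24 against 1 to 45. The 10 proliferation genes summed to 232.3 CPM, near the 209.8 of EMT6-PTR 3 and under the other tumors. The part of these cells in the members' levels was not tested, and organ, lesion and library cannot be told apart with a single metastasis.

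Many genes induced by TNF and NF-kappaB were also higher in the same library. Of the 22 genes induced by TNF and NF-kappaB, 15 were at least 2-fold higher than the EMT6-PTR mean and Ptgs2 was at least 2-fold lower, with a median difference of 2.43. Tnf was at 130.9 CPM against 1.68 to 15.0 in the primary tumors, and Il1a at 111.3 CPM against 0.274 to 5.00. Both encode cytokines that can induce Icam1, Vcam1 and Sele in endothelium. The part of these cytokines in the members' levels was not tested. The 17 counter-receptor and selectin-ligand genes had a median difference of 0.63, with 5 at least 2-fold higher. Itgal was at 43.2 CPM against 5.94 to 23.3, and Itgam at 137.4 CPM against 42.3 to 132.2. Of the 18 tested genes of other adhesion and junction molecules, 7 were at least 2-fold higher.

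Levels of different genes were compared per kilobase of exon. In EMT6-P tumors the order of mean CPM per kilobase was Mcam 14.8, Cdh5 9.85, Pecam1 7.05, Esam 6.58, Vcam1 4.92, Icam1 3.87, Icam2 3.29, Jam2 0.488, Selp 0.298 and Sele 0.0335. Mcam and Cdh5 lay apart from the next gene in the order, as did Icam2 from Jam2, while the ranges of all other neighbours overlapped. In EMT6-PTR tumors Mcam was again first at 14.5 and Icam1 sixth at 4.19, and the ranges of neighbours overlapped except between Jam2 and Sele. In the metastasis Icam1 was first at 172.0 CPM per kilobase, followed by Cdh5 at 62.0, Mcam at 61.2, Esam at 49.2 and Pecam1 at 45.7. Vcam1, at 12.1, was eighth there.

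**Figure D5:**
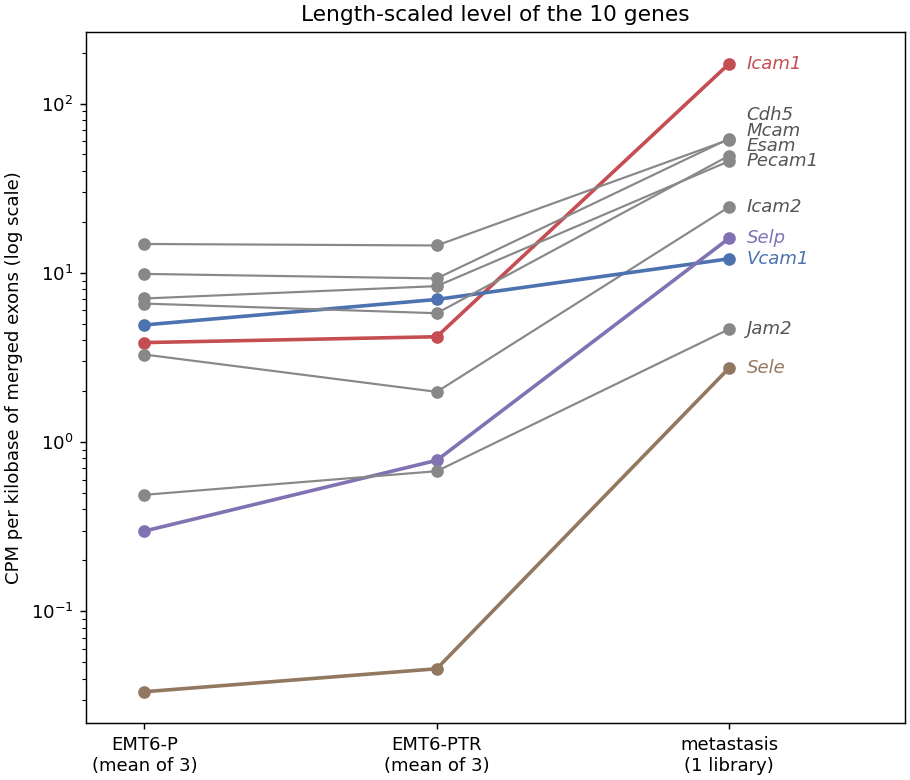
CPM per kilobase of merged exons on a log axis for the 10 genes, as the mean of 3 EMT6-P tumors, the mean of 3 EMT6-PTR tumors and the single metastasis. Icam1 goes from sixth in both tumor groups to first in the metastasis, and Vcam1 has the flattest line into it.

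Taken per unit of Cdh5, on the scale of CPM per kilobase, members in the metastasis lay above, below or within the range of the primary tumors. The ratio of Icam1 to Cdh5 was 0.323 to 0.547 over the 6 primary tumors and 2.77 in the metastasis. That of Selp was 0.00655 to 0.131 and 0.258, and that of Sele, from at most 7 counts in the primary tumors, 0.0 to 0.0107 and 0.0442. In contrast, the ratio of Vcam1 was 0.309 to 1.60 in the primary tumors and 0.195 in the metastasis, and that of Mcam was 1.35 to 1.75 and 0.987, so that both were below every primary tumor. For Icam2, Pecam1, Esam and Jam2 the ratio in the metastasis lay within the range of the primary tumors.

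The genes whose pattern over the 7 libraries was most like that of Icam1, by the root mean square difference of centred log2 CPM, were Tspan2 (0.295), Cass4 (0.316), Pard6b (0.321), Ripor2 (0.363) and Ccrl2 (0.372). Ccrl2, an atypical chemokine receptor, was at 196.8 CPM in the metastasis and at 2.74 to 5.93 CPM in the primary tumors. For Cdh5 they were Chst15 (0.113), Adcy4 (0.139), Cbr2 (0.144), Flt1 (0.154) and Ptafr (0.154). Among the members, Pecam1, Mcam and Esam ranked 26, 29 and 30 in likeness to Cdh5, and Icam1 ranked 5138. The metastasis is the library farthest from the mean for both genes and weighs most in this measure, which is a description with no test.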

How the data were processed

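RNA from 7 tumor samples was sequenced as stranded polyadenylated libraries. The deposited values are estimated counts per gene, which the authors obtained with FastQC 0.11.5, STAR 2.6.0a and RSEM 1.3.1 on GRCm38. Reads shared by similar genes were split by estimation, so 13.497% to 15.569% of values per library were fractional. All 7 columns were used. Symbols came from a table of gene names (53274 of 53465 matched), and positions and exon lengths from GENCODE M21 on GRCm38.

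Counts were rounded, filtered with filterByExpr (minimum count 10), given upper-quartile factors and fitted in edgeR 4.0.16 (glmQLFit, glmQLFTest; R 4.3.3) over 15645 genes in 3 against 3 primary tumors, Benjamini-Hochberg adjusted, with 0.05 as the threshold. Standard errors were the fold change divided by the root of F. The metastasis was left out of the fit and described by log2 CPM. Alternatives used TMM, DESeq2 1.42.0, limma-voom 3.58.1, other filters, the metastasis as an additional group, a replicate block and leaving out each tumor. The fits were checked on simulated counts with less spread than the EMT6-PTR tumors had. This check does not show how small a change could be detected here.

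The members and lists were chosen with earlier results of these data known. The study placed Icam1 in its signature of genes lower in EMT6-PTR, which also used protein data. It placed Selp in its preliminary list of secretory genes higher in EMT6-PTR. Both lists were drawn at least in part from these tumors. All 10 members are named. From each list described, the first 2 markers and the 2 genes with the smallest p could be named. Emcn, Ptgs2, S100a8, S100a9, Adgre1, Krt8, Acta2, Myh11 and CT010467.1 were chosen after their values were seen. So were Thy1, Tubb1, Clec1b and Treml1.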

Additional observations from a re-analysis of the deposited data

How the results depend on the processing

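For the primary tumors, no member was called under any of 13 alternatives, and genes over the whole table were called only by DESeq2, 281 of them. Of the alternative fold changes of members, 108 kept their sign and 8 did not, all between -0.35 and 0.20. Icam1 became -0.065 under limma-voom and -0.034 with the replicate block, and it ranged from -0.35 to 0.45 when each tumor was left out. In the same way Cdh5 ranged from -0.31 to 0.13, Mcam from -0.37 to 0.20 and Esam from -0.39 to 0.028. The cause was not tested, beyond the loss of a tumor.

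Deviations of same-numbered tumors of the 2 groups correlated at 0.259, 0.253 and 0.038, and those of differently numbered tumors at -0.286 to 0.098. Whether same-numbered tumors share more than a number cannot be told from these values. The replicate block called 0 genes. For the metastasis, all alternative differences of members lay above 0. Those under TMM and under a prior count of 0.5 stayed within the SD of the 3 EMT6-PTR tumors. In total 40 stayed within it and 10 moved, each of the 10 from using a single resistant tumor. This split does not measure stability, because among 3 values the farthest always lies at least the SD from their mean. With 3 tumors a group and the spread of the resistant tumors, the intervals above limit what could be seen. For the single metastasis only counting error can be estimated, and the spread between lesions, animals or libraries is unknown.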

Other observations

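Other vessel-wall genes were uneven in the metastasis. All 4 tested genes of a lymphatic endothelium list were at least 2-fold above the mean of the EMT6-PTR tumors, with Lyve1, a hyaluronan receptor of lymphatic vessels and some macrophages, at 155.4 CPM against 2.66 to 8.91 in the primary tumors. Prox1, the transcription factor that defines lymphatic endothelium, was at 0.24 CPM there, within the range of 0.0 to 0.655 in the primary tumors. The 12 mural cell genes summed to 423.3 CPM in the metastasis against 696.9 to 1406.2 in the primary tumors. Acta2, smooth muscle actin, was at 67.8 CPM against 54.2 to 683.5. Gene by gene the list was split, with a median difference of 0.33 from the EMT6-PTR mean, 4 of 12 genes higher and 3 lower by 2-fold or more. Myh11, smooth muscle myosin, was at 13.6 CPM against 1.09 to 3.84. Rgs5, a pericyte marker, was at 15.8 CPM against 6.68 to 49.3, and Cspg4, the pericyte proteoglycan NG2, at 19.3 CPM against 19.2 to 60.8. The metastasis has no replicate of its own, and these differences were not tested.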
